A study of Drosophila melanogaster with 8 samples.

Results

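Genes of the small nuclear RNAs (snRNAs) were examined for contact with RNase H1 in the wing discs of third-instar *Drosophila melanogaster* larvae. They were taken as the genes whose symbol starts with snRNA: in the tables that name 1 peak per gene for each genotype, which gave 12 of the 9826 genes with a peak in either table. All 12 stood in the ecd1 table and 9 of them in the control table. The number and letters that end most symbols give the band of the polytene chromosomes where the gene lies. Binding was mapped by Targeted DamID, in which a bacterial adenine methylase (Dam), free or fused to a protein, marks GATC sites near which it has been. The ecd1 discs carried the temperature-sensitive ecd1 allele of the gene *ecd* and expressed Dam-RNase H1 (3 libraries) or Dam alone (1 library) under *nub*-Gal4. Control discs without ecd1 expressed the same constructs (3 and 1 libraries). The constructs (UAS-LT3-Dam and UAS-LT3-Dam-RNase H1, expressed at a low level) were held off at 25 °C by a heat-sensitive tub-Gal80. A shift to 29 °C on day 6, kept up for 24 h in both genotypes until dissection on day 7, turned them on and inactivated the ecd1 product, per the labels. The controls thus share the heat and the methylase. The *nub* driver is active in the wing part of the disc, so the profiles come from those cells, whereas the allele was carried by the animal.

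Small nuclear RNAs are the RNA parts of the spliceosome. U1 and U2 pair with the start and the branch point of an intron, U4 brings in U6 in a paired form, and U5 holds the exons together in contact with Prp8, a partner of the Ecd protein. The minor spliceosome uses U11, U12, U4atac and U6atac instead for a rare class of introns. RNA polymerase III transcribes U6, U6atac and 7SK and RNA polymerase II the others, all from short genes that do not need splicing. RNase H1 recognises RNA:DNA hybrids, which form where a transcript stays paired with its template. Of the 12 genes, 9 encode spliceosomal RNAs: 3 of U1, 1 each of U2, U4 and U5, and 3 of the minor spliceosome. No gene of U6 was listed. The other 3 were not counted as spliceosomal RNAs. *snRNA:7SK* encodes the RNA that holds the elongation kinase P-TEFb inactive, and *snRNA:U3:22A* carries the name of U3, an RNA of ribosomal RNA processing. *snRNA:LU* is an snRNA gene by its RefSeq type alone, and its role is not given in the sources used here.

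Values are 1 height per peak and genotype, the authors' score on a scale that is not stated. They combine the libraries and come with no replicate error, so no test between genotypes was run here. The authors' own comparison of the genotypes is a pair of deposited tables, 1 of regions higher in ecd1 and 1 of regions higher in control, each region with a height and a false discovery rate (FDR). What that height measures is not stated either. Whether it is the size of the difference between the genotypes is not given. It was not the height of the ecd1 peak where a region had the ends of that peak. At *snRNA:U11* the region had 0.96 and the peak 2.06, and at *snRNA:U4:39B* they had 1.07 and 1.92. Region heights are therefore not comparable with peak heights. The lists were made separately, and heights of both genotypes are set side by side as a description. U1, U2, U4, U5 and U6 each have several annotated copies, whose sequences were not compared here. How reads that match several copies were treated is not given in the sources used here.

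Listed snRNA genes were a minority of those annotated. RefSeq has 32 snRNA genes, of which 11 (34.4%) were in the ecd1 table, where 49.1% of all annotated genes were listed, and 8 (25%) in the control table, where 46.5% of all annotated genes were listed. *snRNA:U3:22A* has no entry under that name there and is the twelfth gene. Small nucleolar RNA genes, short like the snRNA genes (median 154 bp for snRNA genes and 134 bp for these), were listed in 34.2% of cases in ecd1 and 31.6% in control. For transfer RNA genes the shares were 41.4% in ecd1 and 42.1% in control. These shares were not tested against each other.

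**Figure D1:**
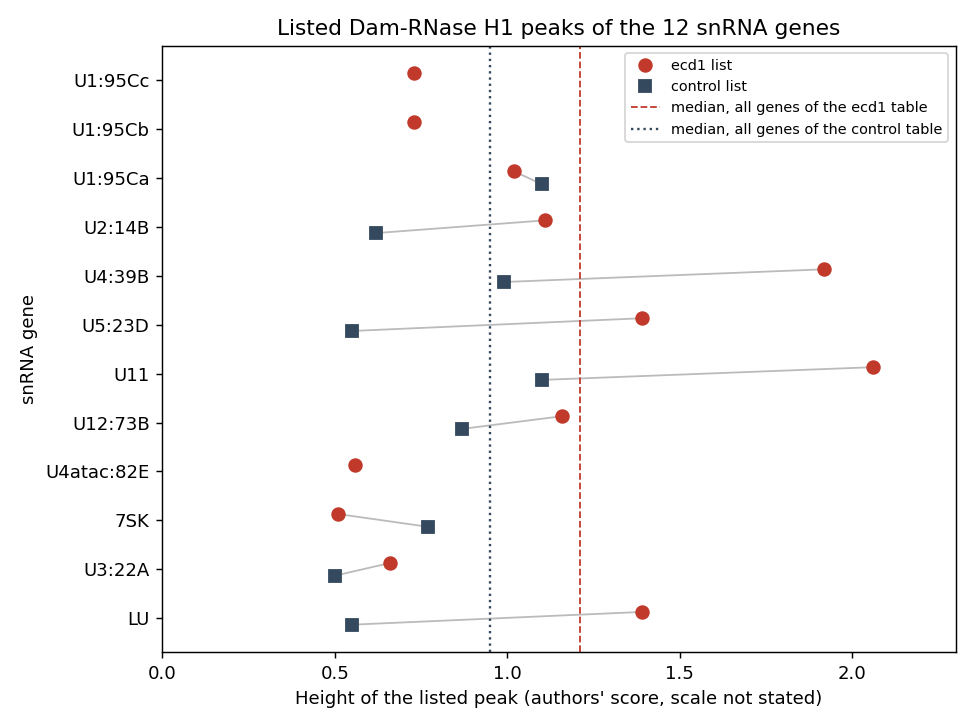
Height of the listed Dam-RNase H1 peak (horizontal axis, authors' score) of each of the 12 snRNA genes in the ecd1 list (circles) and the control list (squares), with the median of all genes of each table as a vertical line. Of the 9 genes with both values, 7 were taller in ecd1 and 2, *snRNA:U1:95Ca* and *snRNA:7SK*, taller in control.

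The median height of the snRNA genes was below that of all genes in each table, while single genes ranged widely. Over the 12 genes in ecd1 they ran from 0.51 to 2.06 with a median of 1.06, where all genes of that table had a median of 1.21. Over the 9 genes in control they ran from 0.50 to 1.10 with a median of 0.77, where all genes of that table had a median of 0.95. Genes shared peaks, so the 12 genes rest on 10 distinct ecd1 peaks and the 9 on 8 distinct control peaks. In the 9 genes with both values the listed peaks of the genotypes overlapped by at least 1 bp, as they did for 80.4% of the genes in both tables. The ecd1 peak was the taller in 7 of the 9, and in 79.7% of the genes in both tables. The median difference, ecd1 minus control, was 0.49 over the 9 genes and 0.28 over all genes in both tables. *snRNA:U5:23D* and *snRNA:LU* share both peaks, so their difference of 0.84 entered these counts and the median once for each gene. Thus most snRNA genes followed the direction that most genes took.

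U1, the RNA that first recognises an intron, had 3 listed genes of 5 annotated, all at the 95C locus. *snRNA:U1:95Ca* (FBgn0004185, 3R:23859467-23859630 in RefSeq release 6) lay whole inside a peak in both genotypes. The ecd1 peak (3R:23859003-23859883) was 881 bp wide with a height of 1.02, and the control peak (3R:23858099-23860412) was 2314 bp wide with a height of 1.10. The heights were thus close, while the ecd1 peak took up 38.1% of the length of the control peak. By the authors' deposited table a region of height 0.66 and an FDR listed at 0 was higher in control (3R:23859136-23860412). It holds all 164 bp of the gene and runs past the right end of the ecd1 peak.

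The neighbouring copies *snRNA:U1:95Cc* (FBgn0004187, 3R:23826334-23826497) and *snRNA:U1:95Cb* (FBgn0004186, 3R:23827870-23828033), both inside the span of *CG34355*, went the other way. They shared an ecd1 peak of 340 bp and height 0.73 (3R:23826296-23826635), which held all of *snRNA:U1:95Cc* and ended 1235 bp from *snRNA:U1:95Cb*. No control peak was listed for either. The nearest one (3R:23822974-23825198, height 0.88) ended 1136 bp from *snRNA:U1:95Cc* and was listed for other genes. In the authors' deposited table the same 340 bp are a region higher in ecd1, with a height of 0.71 and an FDR of 0.00023. Copies of 1 RNA at 95C were therefore listed with regions of opposite direction. The region higher in control lay 32639 bp from *snRNA:U1:95Cc* and 31103 bp from *snRNA:U1:95Cb*. The region higher in ecd1 did not touch *snRNA:U1:95Cb*. Whether reads could be told apart between these copies is not given.

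Outside the 95C locus, *snRNA:U1:82Eb* (FBgn0004183, 3R:4947933-4948096) had no listed peak, and the nearest peak of either genotype, of height 0.53 in both, began 2349 bp away. It had a region of height 0.39 and FDR 0.00534 higher in control all the same, which covered 134 bp of the gene (3R:4946736-4948066, authors' deposited table). No base of that region lay in a called peak of either genotype. *snRNA:U1:21D* (2L:901491-901654) was 26090 bp from the nearest peak in both lists.

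U2, the RNA of the branch point, had 1 listed gene of 6. *snRNA:U2:14B* (FBgn0003920, X:16254672-16254863) was listed with a peak that did not touch it. In ecd1 the peak had a height of 1.11 and began 4065 bp away (X:16258928-16261465), and in control it had a height of 0.62 and began 3601 bp away (X:16258464-16261465). Both were listed for *CG12507* too. Inside them, per the authors' deposited table, lies a region of height 0.94 that was higher in ecd1 (X:16260655-16261178), listed for *CG12507* and not for the snRNA gene. A U5 gene next to it, *snRNA:U5:14B* (X:16254008-16254117), was 4811 bp from the same ecd1 peak and 4347 bp from the same control peak and was not listed.

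The tables of 1 peak per gene left out a U2 gene that lies in a peak. *snRNA:U2:34ABa* (2L:13211925-13212116) was whole inside a control peak of 1511 bp and height 0.87 (2L:13211728-13213238) that was listed for *kek4*. Its nearest ecd1 peak was 5759 bp away (2L:13203362-13206166, height 1.55). No region of either direction was listed for it, and the nearest region higher in control lay 36596 bp off. Its neighbour *snRNA:U2:34ABb* (2L:13215839-13216030) was 5577 bp from an ecd1 peak (height 0.53) and 2601 bp from that control peak. *snRNA:U2:34ABc* (2L:13244370-13244561) was 6437 bp from an ecd1 peak (height 1.71) and 3357 bp from a control peak (height 0.55).

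U4, which carries U6 into the spliceosome, had 1 listed gene of 3. *snRNA:U4:39B* (FBgn0003930, 2L:21215036-21215178), inside the span of *Atg18b*, had the second tallest ecd1 peak among the 12 genes. Its height was 1.92 in ecd1 (2L:21217730-21218795), above 90.3% of the peaks of that list, and 0.99 in control (2L:21217995-21218795), above 59.7%. The peaks began 2552 bp and 2817 bp from the gene, in that order, and were shared with *CG8679* and *Atg18b*. The ecd1 interval stands in the authors' deposited table as higher in ecd1, with a height of 1.07 and an FDR of 1e-05, beside the snRNA gene and not on it. *snRNA:U4:25F* (2L:5565619-5565766) was in neither gene table, 15003 bp from the nearest ecd1 peak (height 0.58) and 5503 bp from the nearest control peak (height 0.77).

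U5, the RNA bound by Prp8, had 1 listed gene of 7. *snRNA:U5:23D* (FBgn0003934, 2L:3048701-3048831) and *snRNA:LU* (FBgn0263847, 2L:3046765-3046880), both inside the span of *FASN2*, shared their peaks. The ecd1 peak had a height of 1.39 over 1319 bp (2L:3046351-3047669) and the control peak 0.55 over 759 bp (2L:3046338-3047096). Both peaks held all 116 bp of *snRNA:LU*, whereas *snRNA:U5:23D* was 1032 bp from the ecd1 peak and 1605 bp from the control peak. A region of 1.14, the greatest height among snRNA genes in the authors' deposited tables, was higher in ecd1 (2L:3046524-3047669), with an FDR listed at 0. It held 573 bp of the control peak and 573 bp beyond it. Among the other U5 genes, *snRNA:U5:63BC* (3L:3090801-3090923) had an ecd1 peak of 231 bp and height 0.64 at 780 bp (3L:3089791-3090021), listed for no gene, while the nearest control peak was 4153 bp away. *snRNA:U5:35D* (2L:15751557-15751682) was 3316 bp from an ecd1 peak of height 0.72 and 3489 bp from a control peak of height 1.40. For *snRNA:U5:34A* (2L:13244848-13244974) the nearest ecd1 peak was 6024 bp away (height 1.71) and the nearest control peak 2944 bp (height 0.55).

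**Figure D2:**
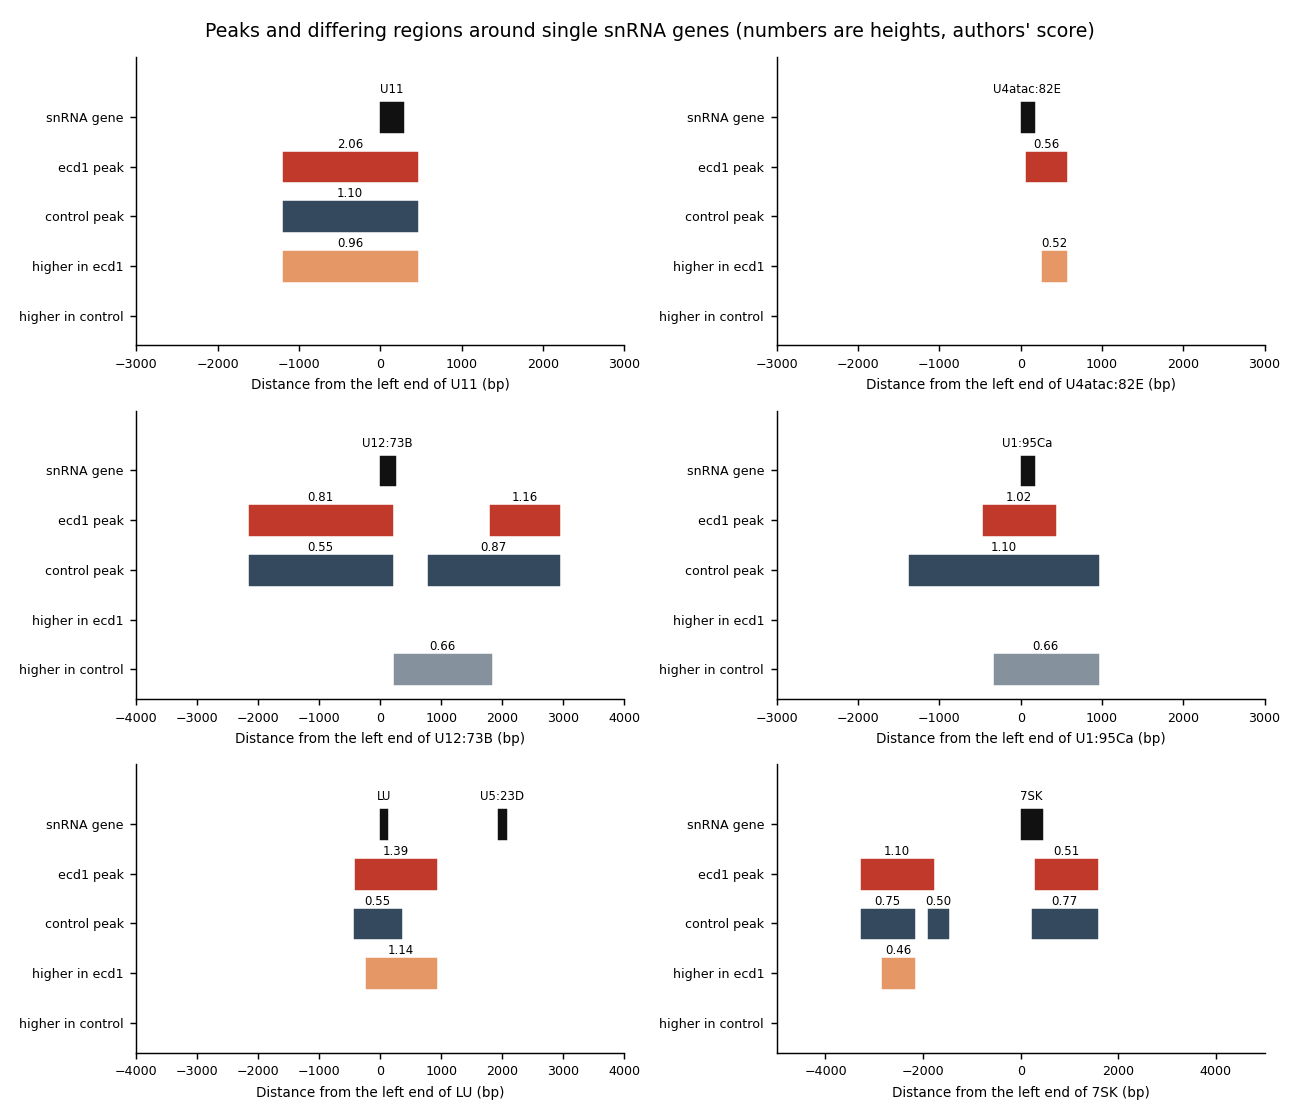
Peaks of the ecd1 and control lists and the authors' regions of either direction around 6 snRNA genes, with distance in bp from the left end of the named gene on the horizontal axis and the height (authors' score) printed above each bar. The region higher in ecd1 matches the peak at *snRNA:U11*. Of the 1277 bp of the region higher in control at *snRNA:U1:95Ca*, all lie in the control peak and 748 in the ecd1 peak. Of the 1576 bp of that at *snRNA:U12:73B*, 1031 lie in a control peak and 1 in an ecd1 peak.

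U6, the catalytic RNA made by RNA polymerase III, had no listed gene of 3. *snRNA:U6:96Aa*, *snRNA:U6:96Ab* and *snRNA:U6:96Ac* lie within 3R:24556088-24557321. An ecd1 peak of height 0.86 (3R:24553872-24554544) ended 1544 bp, 2148 bp and 2671 bp from them and was listed for *Esyt2* and *tRNA:Asp-GTC-1-11*. No control peak lay that near: the nearest (3R:24563666-24566447, height 1.05) was 7472 bp, 6868 bp and 6345 bp away. On the other side an ecd1 peak of 0.88 (3R:24561698-24562706), listed for no gene, had the ends of a region of height 0.62 that the authors' deposited table puts as higher in ecd1, 4377 bp from *snRNA:U6:96Ac*.

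Of the 4 minor spliceosome genes, 3 lay inside or partly inside an ecd1 peak and 2 in a control peak, and the fourth, *snRNA:U6atac*, in neither. Of all annotated genes 41.9% overlapped an ecd1 peak and 40.4% a control peak, and 4 genes are too few to set apart from these shares. *snRNA:U11* (FBgn0083987, 3L:3893056-3893330), inside the span of *Fie*, had the tallest peak of the 12 genes in ecd1 and shared the tallest in control with *snRNA:U1:95Ca*. Its peak had the same ends in both lists (3L:3891864-3893501), with a height of 2.06 in ecd1, above 93.3% of that list, and 1.10 in control, above 69.1%. The authors' deposited table lists the same 1638 bp as higher in ecd1, with a height of 0.96 and an FDR of 0.00059. The difference of the peak heights, ecd1 minus control, was 0.96 too. Over the 1801 peaks with the same ends in both lists, 85% were taller in ecd1, with a median difference of 0.28. The interval is also listed for *Fie*, *Gr63a* and *CR45422*, and *snRNA:U11* takes up 275 bp of it.

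*snRNA:U4atac:82E* (FBgn0263018, RefSeq symbol *snRNA:U4atac*, 3R:5195004-5195163) lies inside the span of *cno* and was listed in ecd1 alone. The ecd1 peak was small, with a height of 0.56 over 487 bp (3R:5195073-5195559) and an FDR of 0.00838, and covered 91 bp of the gene; it was above 8.25% of the list. The nearest control peak was 12787 bp away (height 0.42). A region of 0.52 in the authors' deposited table, 108 bp outside the gene (3R:5195271-5195559), was higher in ecd1 with an FDR of 0.00355. No other gene was listed for the peak or the region.

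*snRNA:U12:73B* (FBgn0041721, RefSeq symbol *snRNA:U12*, 3L:16653769-16654006), inside the span of *Baldspot*, sat between peaks. A peak with the same ends in both lists (3L:16651613-16653965) covered 197 bp of the gene, with heights of 0.81 in ecd1 and 0.55 in control, and was listed for no gene. The peak named for the gene was the next one, of 1.16 over 1118 bp in ecd1 (3L:16655574-16656691) and of 0.87 over 2148 bp in control (3L:16654544-16656691). The ecd1 peak thus began 1568 bp from the gene and the control peak 538 bp. By the authors' deposited table the stretch between the ecd1 peaks was higher in control (3L:16653999-16655574, height 0.66, FDR 2e-05), including 8 bp of the gene, although the flanking peaks were the taller in ecd1. *snRNA:U6atac* (2L:8389724-8389820) had no listed peak and was 6016 bp from an ecd1 peak and 4590 bp from a control peak.

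*snRNA:7SK* (FBgn0065099, RefSeq symbol *snRNA:7SKa*, 3R:7474553-7474996) was the gene with the lowest ecd1 height among the 12, and lower in ecd1 than in control. The height was 0.51 in ecd1 (3R:7474850-7476123) and 0.77 in control (3R:7474778-7476123), above 5.63% and 37.2% of the lists. The ecd1 peak covered 147 bp of the gene and the control peak 219 bp, and each was listed for *tRNA:Val-CAC-2-4* too. Neither authors' table lists a region for it, so this difference of -0.26 (ecd1 minus control) has no call. The copy *snRNA:7SKb* (3R:23432869-23433272), inside the span of *CG4374*, was in neither gene table but lay 991 bp from a peak with a height of 1.53 in ecd1 (3R:23431093-23431878) and 1.26 in control (3R:23430453-23431878). *snRNA:U3:22A* (FBgn0003926) had a peak with the same ends in both lists (2L:1431095-1432158), with heights of 0.66 in ecd1 and 0.50 in control and no listed region. *snRNA:U7* (3L:3593823-3593893), the RNA of histone mRNA processing, was 17698 bp from the nearest peak of either list.

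**Figure D3:**
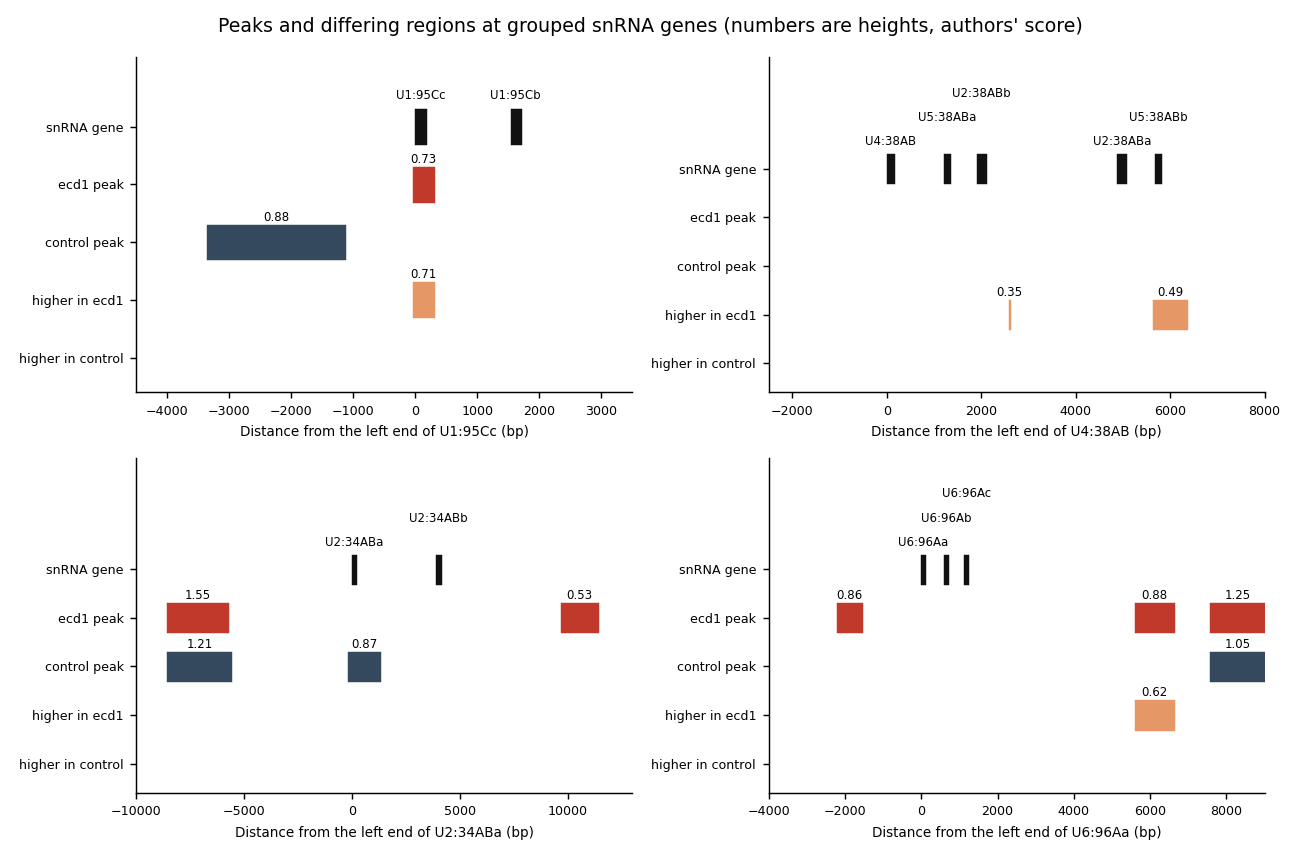
Peaks and the authors' regions at 4 groups of neighbouring snRNA genes, with distance in bp from the left end of the named gene on the horizontal axis and heights (authors' score) above the bars. The 5 genes around *snRNA:U4:38AB* have 2 regions higher in ecd1 and no peak in view, and the 3 U6 genes lie between ecd1 peaks.

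The 38AB group of 5 genes inside the span of *sick* (2 of U2, 2 of U5 and 1 of U4) had no peak of either list nearer than 18192 bp, and no gene of it was listed with a peak. Yet the authors' deposited table has 2 small regions there as higher in ecd1. One of 23 bp, height 0.35 and FDR 0.00427 (2L:19813315-19813337) lies 479 bp from *snRNA:U2:38ABb* and 2440 bp from *snRNA:U4:38AB* and is listed for both. The other, of 712 bp, height 0.49 and FDR 0.00522 (2L:19816380-19817091), holds all 127 bp of *snRNA:U5:38ABb* and lies 575 bp from *snRNA:U2:38ABa*, which are listed with it in the authors' deposited table. The heights exceed 1.08% and 10.8% of the regions higher in ecd1. *snRNA:U5:38ABa*, 1241 bp from the first region, was not listed.

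**Figure D4:**
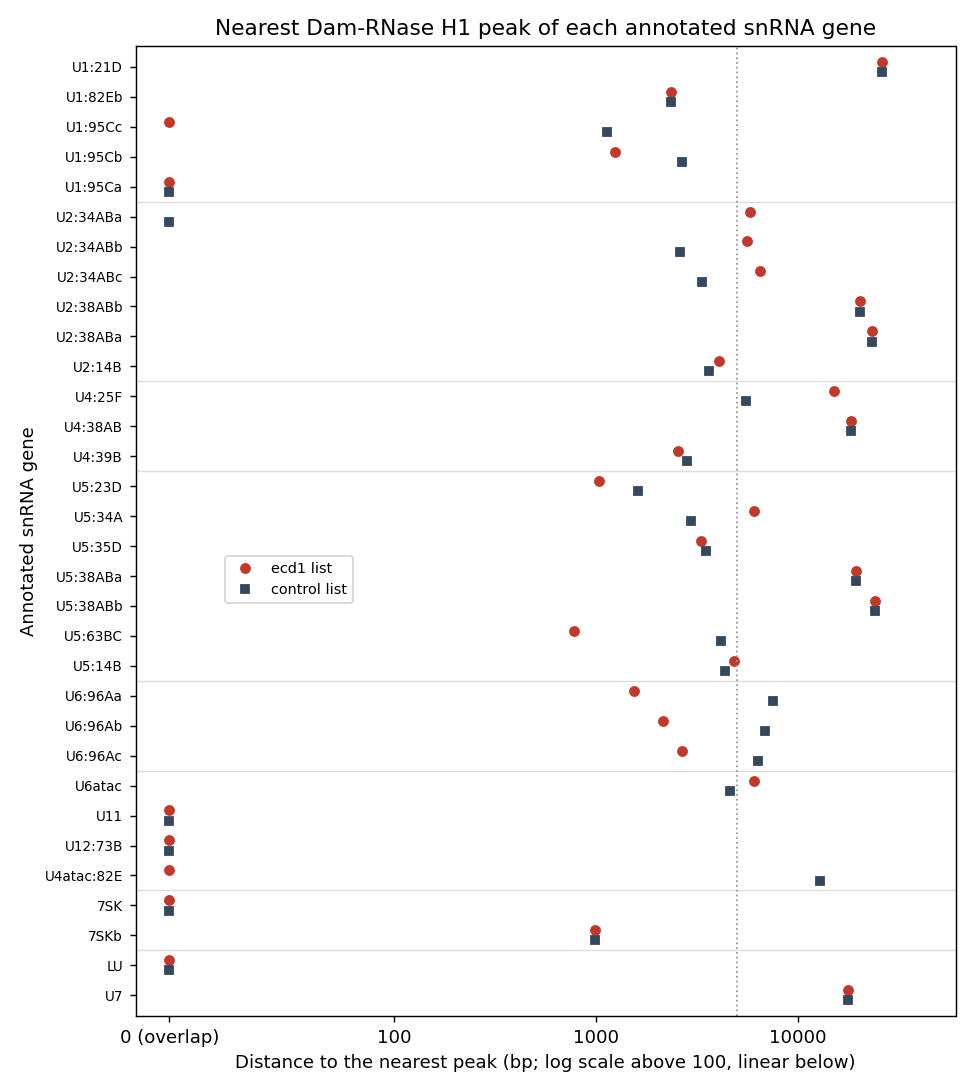
Distance in bp (log scale above 100) from each of the 32 annotated snRNA genes to the nearest peak of the ecd1 list (circles) and the control list (squares), grouped by class, with 0 for an overlap and a dotted line at 5000 bp. Of the minor spliceosome genes, 3 of 4 lie at 0 in ecd1 and 2 in control, beside 41.9% and 40.4% of all annotated genes. Beyond the line lie 13 genes in ecd1 and 12 in control.

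Seen over all 32 annotated genes and the full peak lists, 7 genes (21.9%) overlapped an ecd1 peak and 6 (18.8%) a control peak, where 41.9% of all annotated genes overlapped an ecd1 peak and 40.4% a control peak. The median length is 154 bp for snRNA genes and 1710 bp for all annotated genes. Within 1000 bp of a peak lay 9 snRNA genes (28.1%) in ecd1 and 7 (21.9%) in control, against 53% and 50.5% of all annotated genes. For small nucleolar RNA genes, of median length 134 bp, the shares within 1000 bp were 51.7% in ecd1 and 54.6% in control. By overlap their shares were 20.8% in ecd1 and 27.1% in control, beside 21.9% and 18.8% for snRNA genes. The part of gene length or gene position in these shares was not tested. Transfer RNA genes overlapped a peak in 35.2% of cases in ecd1 and 36.9% in control. For the snRNA genes the median distance to the nearest peak was 2994 bp in ecd1 and 3545 bp in control. Of the 24 genes of U1, U2, U4, U5 and U6, 2 overlapped an ecd1 peak (*snRNA:U1:95Ca* and *snRNA:U1:95Cc*) and 2 a control peak (*snRNA:U1:95Ca* and *snRNA:U2:34ABa*). By copy number, 4 of the 6 genes with no annotated copy overlapped an ecd1 peak and 3 a control peak. Of the 26 genes with a copy, 3 overlapped an ecd1 peak and 3 a control peak. The part of copy number in this, through reads that match several copies, was not tested.

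Listing in 1 genotype alone was seen for 3 of the 12 genes, too few to read as a direction. *snRNA:U1:95Cb*, *snRNA:U1:95Cc* and *snRNA:U4atac:82E* were in the ecd1 table alone, 3 of the 12 on 2 peaks, where 15.7% of all genes with a peak were. None of the 12 was in the control table alone, where 10.9% of all genes with a peak were. The heights of those 3 in ecd1, 0.73, 0.73 and 0.56, were in the lower part of the range, above 20.6%, 20.6% and 8.25% of the list. By overlap in the full lists, *snRNA:U1:95Cc* and *snRNA:U4atac:82E* met an ecd1 peak alone. *snRNA:U2:34ABa*, which is in neither gene table, met a control peak alone.

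The authors' comparison of the genotypes put 7 of the 12 genes (58.3%) beside a region higher in ecd1 and 2 (16.7%) beside one higher in control, with no region for the other 3. Among all 9826 genes with a peak, 57.1% were called higher in ecd1 and 22.1% higher in control, so the snRNA genes stood close to the background in both directions. The 7 were *snRNA:U1:95Cb*, *snRNA:U1:95Cc*, *snRNA:U4:39B*, *snRNA:U5:23D*, *snRNA:LU*, *snRNA:U11* and *snRNA:U4atac:82E*, and the 2 were *snRNA:U1:95Ca* and *snRNA:U12:73B*. A further 5 snRNA genes had a region but no listed peak, namely 4 of the 38AB group on the ecd1 side and *snRNA:U1:82Eb* on the control side. Of all genes listed with a region, 6.86% on the ecd1 side and 11.5% on the control side were in neither peak table. In all, 11 genes rested on 7 distinct regions higher in ecd1, of heights from 0.35 to 1.14 in the authors' deposited table, and 3 genes on 3 regions higher in control, of heights from 0.39 to 0.66. The region overlapped the gene itself for 4 of the 11 genes on the ecd1 side and for all 3 on the control side. Over the 32 annotated snRNA genes the shares were 34.4% and 9.38%, and over all annotated genes 33.8% and 13.8%.

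Genes that make and assemble snRNAs were set beside these, from a list of 56 genes of snRNA transcription, processing, transport and snRNP assembly. *SmG* of this list matched no annotated or listed symbol and counts as a gene without a peak, and *Ell* was matched as *Su(Tpl)* by a synonym. A peak in either genotype was listed for 35 of the 56 genes, beside 55.2% of all annotated genes. Of these, 18 (51.4%) were called higher in ecd1 and 8 (22.9%) higher in control, again close to the shares of all genes. Of the 19 genes in both tables, 14 were taller in ecd1, beside 79.7% of all genes in both tables. The Integrator complex, which cleaves nascent snRNAs, had peaks at 12 of 14 genes, a count not tested against the 55.2% of all annotated genes, with regions higher in ecd1 at 6 of these and higher in control at 2, the greatest region heights on the ecd1 side in the authors' deposited table being 1.46 beside *IntS2* (X:17657304-17660844) and 1.21 inside *omd* (3R:13684082-13684720). *SmB*, of the Sm protein ring that snRNAs carry, had an ecd1 peak of 1.98, no listed control peak, and in the authors' deposited table a region higher in ecd1 (2L:10425250-10426120) of height 1.49. Others of that side in the authors' deposited table were *csul*, an arginine methyltransferase of Sm proteins (0.85), the Integrator gene *IntS8* (0.83) and *Gem2*, the partner of SMN (0.82). On the control side the authors' deposited table gives *SmD3* of the Sm ring (0.92), the Gemin5 gene *rig* (0.63), *LSm3* of the U6 ring (0.57), *IntS3* (0.55), *U2A* of the U2 particle (0.52) and *Pbp45*, a subunit of the snRNA promoter complex SNAPc (0.47). *SmD3* and *rig* had a region higher in ecd1 as well, of 0.69 and 0.49 in the authors' deposited table. At *SmD3* neither region touched the gene: the one higher in control lay 1462 bp away and the one higher in ecd1 3407 bp. The listed peak of *SmD3* was 1.22 in ecd1 and 1.12 in control, and that of *omd* 1.00 in ecd1 and 1.04 in control.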

How the data were processed

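The 8 libraries were paired 50 bp reads of methylation-specific PCR products, per the labels' protocols, on genome build BDGP6, per the submitters' processing notes. Depth, read alignment, peak calling and the way replicates were combined: not given in the sources used here. One label of the ecd1 library of Dam alone names Dam-RNase H1, and the genotype label was followed. Heights are the authors' score as deposited, and the FDR, a deposited q-value, is under 0.01 throughout. The gene tables hold 1 peak or region per gene. The lists hold no expression values, so the tissue could not be checked by markers. Symbols were matched to RefSeq (Release 6 plus ISO1 MT) by symbol or unique synonym, 10426 of 10503 (99.3%) and 11 of the 12 snRNA genes; strand, exons and promoter sequences were not used here. Distances and overlaps were computed in Python 3.11.15 and checked on simulated intervals. All snRNA genes are named; of the list of 56 genes, up to 6 per direction with the greatest heights. Members and lists were chosen with earlier results of these data known. The alternatives are given at the end.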

Additional observations from a re-analysis of the deposited data

How the results depend on the processing

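No paired analysis was possible because the files hold no value per library; for the same reason no library could be left out. Alternatives moved the counts more than the heights. The 12 snRNA genes with an ecd1 peak became 7 when a peak had to overlap the gene span, 6 with an FDR under 0.001 and 7 with a height of at least 1. The 9 genes with a control peak became 2 with a height of at least 1. The 11 genes with a region higher in ecd1 became 4 when the region had to overlap the gene, 7 with any region within 1000 bp, and 3 with a height of at least 1. Under settings chosen after seeing the data they became 7 as distinct regions and 7 as genes with a listed peak. The 3 genes with a region higher in control became 0 with a height of at least 1. The limits on FDR, on height and to genes with a listed peak keep fewer by construction. The peak overlap and the region distance of 1000 bp also take in peaks and regions whichever gene they are listed for. Counting distinct regions changes the unit. Leaving out *snRNA:7SK*, *snRNA:LU* and *snRNA:U3:22A*, also chosen after seeing the data, left 9 genes in ecd1 and 6 in control. Median heights ranged from 0.81 to 1.06 in ecd1 and from 0.77 to 0.87 in control. The order of the 2 medians was not kept, but each median is over a different set of genes. With listed peaks the medians were 1.06 in ecd1 (12 genes) and 0.77 in control (9 genes). With the tallest peak of the full list within 1000 bp of the gene they were 0.81 in ecd1 (9 genes) and 0.87 in control (7 genes). There *snRNA:U1:95Cc* (0.73), *snRNA:U5:63BC* (0.64) and *snRNA:U4atac:82E* (0.56) entered in ecd1 alone, and *snRNA:U2:34ABa* (0.87) in control alone. Medians over the same genes were not computed for that setting. With a reciprocal overlap of 50%, 8 of the 9 peak pairs were shared. The lack of depth and of values per library limits every comparison of the genotypes.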
